A study of Mus musculus with 27 samples.

Results

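The 10 genes followed here, in single muscle fibers of mice with and without muscle Smn1, control how many mitochondria a cell builds: Ppargc1a, Ppargc1b, Nrf1, Gabpa, Tfam, Tfb1m, Tfb2m, Esrra, Esrrg and Ppara. Every probe whose gene name in the array files is one of these 10 symbols was taken, which gave 19 of the 55681 probes of the array. Of the 19 probes, 15 had usable values on at least 75% of the 27 arrays and entered the test together with the other probes that did, 22169 in all. The other 4 probes (1 each of Nrf1, Gabpa, Tfb1m and Ppara) did not, so 9 of the 10 genes had a tested probe and Tfb1m had none.

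Mitochondrial biogenesis is controlled from the nucleus. The coactivators PGC-1alpha and PGC-1beta, encoded by Ppargc1a and Ppargc1b, bind no DNA themselves and work through transcription factors such as NRF-1, GABP, the estrogen-related receptors and PPARalpha, which turn on respiratory chain and fat oxidation genes. Among the genes that NRF-1 and GABP turn on are Tfam, Tfb1m and Tfb2m, whose products go into the mitochondrion, where Tfam packs mitochondrial DNA and, with Tfb2m and the mitochondrial RNA polymerase, starts its transcription. In skeletal muscle PGC-1alpha is known for its rise with endurance exercise and for its part in oxidative fibers.

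The study asked how loss of Smn1, the mouse counterpart of the gene whose loss causes spinal muscular atrophy, alters muscle fibers, and whether a stem cell graft alters them again. Single myofibers were picked from collagenase-treated tibialis anterior muscle of male mice, and the RNA of each was amplified in 18 cycles and hybridized in 1 colour to an Agilent mouse array of its own. There were 8 myofibers of 2 Wt (wild type) mice, 12 of 3 Smn1deltaSKM mice and 7 of 2 Smn1deltaSKM+AFS mice. Smn1deltaSKM mice carry floxed Smn alleles (Smn F7/F7) and Cre under the human alpha-skeletal actin promoter (HSA-Cre), so that the deletion is meant for skeletal muscle fibers and not for other cells. Smn1deltaSKM+AFS mice have the same alleles and received amniotic fluid stem cells, sorted for GFP and c-kit, through the tail vein, and nothing in the labels says whether a given myofiber held graft nuclei. The labels give an age of 3 months for every mouse, while the methods put the injection at that age and the killing a month later. The methods and the results section also differ on whether Wt myofibers came from GFP mice of the C57BL/6 strain or from littermates. For the grafted group the paper's results section tells of fewer myofibers from more mice than the labels do. The total of arrays in its methods is also below the sum of the groups, and the labels were followed here.

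Values below are log2 levels, the log2 signal of a spot minus the 75th percentile of its array, so that 0 is that percentile and 1 unit is a factor of 2. Levels of different probes are not comparable with each other. The mouse was the replicate, so limma was run on 1 mean per mouse and a probe was called at an adjusted p under 0.05, by Benjamini-Hochberg adjustment over all 22169 probes. With 2 or 3 mice a group, the p-values rest on few mice. The spread of a probe was estimated over the mice of all 3 groups, and limma drew it toward that of the other tested probes. Each array had values for 23183 to 37595 probes. The Wt arrays had a slide and a scan day to themselves, so slide, scan day and genotype cannot be told apart in either comparison with Wt. All 5 myofiber markers were measured, and a level is that of a whole myofiber, in which less RNA per nucleus and fewer nuclei cannot be told apart. Of the 2 Smn1 probes, the one at chr13:100907539-100907598 lay at 1.86 and 1.84 in the Wt mice, at -0.071, 0.20 and 0.36 in the Smn1deltaSKM mice and at -0.34 and 0.82 in the Smn1deltaSKM+AFS mice. It differed by -1.68 in Smn1deltaSKM (standard error 0.368, adjusted p = 0.0201) and the other probe by 0.19 (adjusted p = 0.715). Whether either probe lies in the deleted part was not determined here. The array's 5 myofibers of scan day 1, namely 3 of Smn1deltaSKM mouse 1 and 2 of Smn1deltaSKM+AFS mouse 1, stood apart in several of the 10 genes, and results are given with and without them.

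The probes behind the results are shown first, because probes of one gene did not always move together. Each probe is 60 bases long, and the first 30 bases, 5′ to 3′, are printed with no part marked. Positions are in mm9 as the array files give them. No annotation of that build was used here, so exons and untranslated regions are not assigned.
Nrf1, A_52_P376269, chr6:30066141-30066200, plus strand: aagcaacatgggcgggaggatcttttatat
Nrf1, A_55_P2000077, chr6:30103035-30103094, plus strand: ctcccgtgcgtgatagtgtatttaatgtgg
Tfam, A_55_P2026445, chr10:70691260-70691319, minus strand: ctctgagcattaagatggaagacggagttg
Tfam, A_51_P493720, chr10:70691103-70691162, minus strand: ctttgagccttgacagaagatgatgctgag
Tfam, A_52_P351785, chr10:70688866-70688925, minus strand: cctctgaatttaaagctggtgttagcatac
Tfb1m, A_52_P345247, chr17:3519390-3519449, minus strand: tgacctcgtgactttactatccagcttggt
Ppara, A_55_P2071601, chr15:85632534-85632593, plus strand: aaatgctcctctaggcccctcctttggcag
Ppara, A_55_P2055854, chr15:85632110-85632169, plus strand: ctttgaaaacctacaagtcaaggtgtggcc

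Promoters bear on these genes because several of them are thought to act on each other's transcription. Windows from 250 bases before to 50 bases after the start of transcription were searched on both strands for GCGCATGC (a site of NRF-1), CCGGAAG (an ETS site of the kind GABP binds) and CAAGGTCA (a half-site of the estrogen-related receptors). RefSeq windows of GRCm38.p6 were at hand for 9 of the 10 genes, all but Ppargc1b, which is named only. Over 32851 windows of this length, 2.71% held the NRF-1 letters, 8.86% the ETS letters and 1.56% the half-site. The NRF-1 letters occurred in Ppara, with overlapping matches at positions -31 and -29 from the start, in Esrra at -34 and in Tfb2m at 13, past the start. The ETS letters occurred in Tfam at -47 and in Gabpa at -93. No window of Ppargc1a, Nrf1, Tfb1m or Esrrg held any of the 3, and no window of the 9 genes held the half-site. A match of letters is a description and not a site in use. The 250 bases before the start are printed for Ppara, Tfam and Tfb1m, the genes whose values the results turn on most, with matched letters in capitals.
Ppara, chr15:85735526-85735775, plus strand: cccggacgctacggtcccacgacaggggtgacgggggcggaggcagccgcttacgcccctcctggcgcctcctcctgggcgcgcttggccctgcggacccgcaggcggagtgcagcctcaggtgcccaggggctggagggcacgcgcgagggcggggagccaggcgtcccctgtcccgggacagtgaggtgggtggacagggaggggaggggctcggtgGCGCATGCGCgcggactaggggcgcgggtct
Tfam, chr10:71238045-71238294, minus strand: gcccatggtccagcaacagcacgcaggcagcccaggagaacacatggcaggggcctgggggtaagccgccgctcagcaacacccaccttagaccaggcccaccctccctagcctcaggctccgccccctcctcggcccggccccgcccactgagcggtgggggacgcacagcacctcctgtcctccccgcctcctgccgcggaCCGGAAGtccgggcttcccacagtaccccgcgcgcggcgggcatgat
Tfb1m, chr17:3557756-3558005, minus strand: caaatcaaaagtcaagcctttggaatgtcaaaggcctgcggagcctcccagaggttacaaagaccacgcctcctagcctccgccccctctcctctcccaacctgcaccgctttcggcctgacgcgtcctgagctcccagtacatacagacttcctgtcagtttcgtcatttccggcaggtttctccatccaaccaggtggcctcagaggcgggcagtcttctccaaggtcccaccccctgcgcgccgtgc

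In Smn1deltaSKM against Wt, 0 of the 15 tested probes of these regulators were called, where 21.5% of all 22169 probes were called. By unadjusted p under 0.05 there were 4 of 15, beside 39.0% of all probes: the Ppargc1a probe A_55_P2011702 and the Ppara probe A_55_P2071601 lay higher, and the Nrf1 probe A_52_P376269 and the Tfb2m probe lay lower. The median difference over the 15 probes was 0.11, beside -0.14 over all probes, with 8 of the 15 above 0. The median standard error of the 15 was 0.473, against 0.336 over all tested probes, so the same difference had less chance of being called among them. In Smn1deltaSKM+AFS against Wt, 1 of the 15 was called, the Ppara probe A_55_P2071601, where 7.33% of all probes were called. In Smn1deltaSKM+AFS against Smn1deltaSKM, 0 of the 15 and 0% of all probes were called, and limma gave an unadjusted p under 0.05 to 712 probes (3.21%), among them 1 Ppara probe. Taking the myofibers as replicates called 4 of the 15 in Smn1deltaSKM against Wt (Nrf1 A_52_P376269, Ppargc1a A_55_P2011702, Ppara A_55_P2071601 and Tfb2m), where 54.1% of all probes were called. That fit counts myofibers of the same mouse as independent, so its p-values do not measure the spread between mice and its calls are no support. The first and second comparisons share the Wt mice, and the third shares its mice with both.

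**Figure D1:**
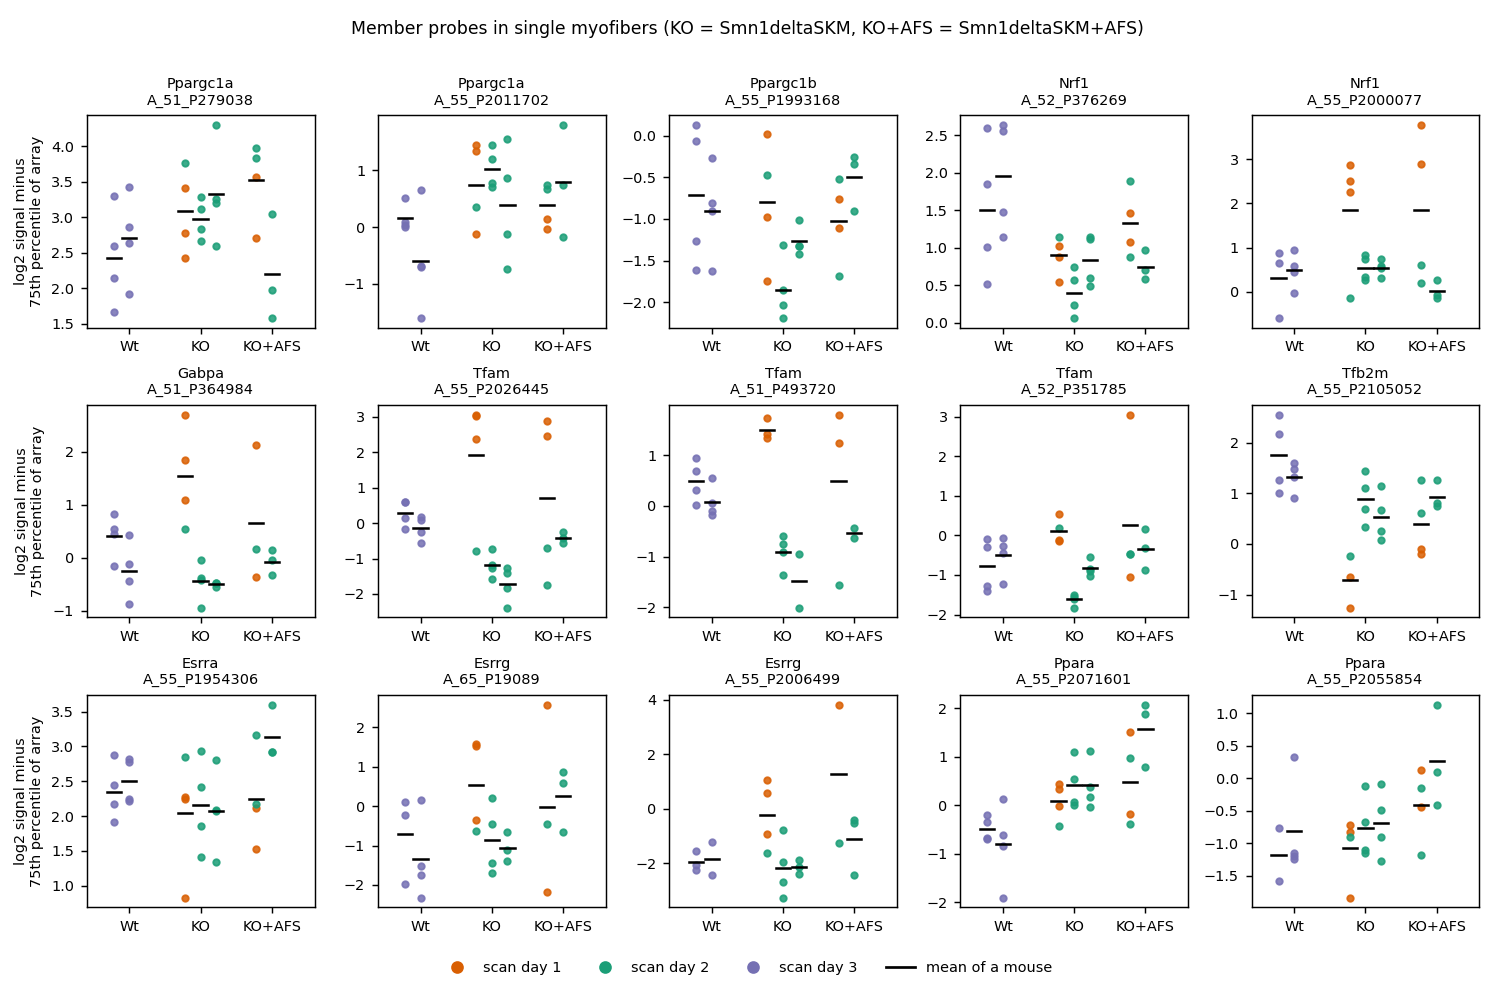
Log2 level (log2 signal minus the 75th percentile of the array, vertical axis of each panel) of the 15 tested probes in every myofiber with a value; each column of points within a group is 1 mouse, bars are mouse means, and colours mark the scan day. The orange points of scan day 1 lie above nearly all others for Tfam A_55_P2026445, Tfam A_51_P493720 and Nrf1 A_55_P2000077, and the Smn1deltaSKM+AFS mice lie above the Wt mice for both Ppara probes.

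Ppargc1a, the exercise-responsive coactivator, was measured by 2 probes on all 27 arrays. By A_51_P279038 the Wt mice lay at 2.42 and 2.71, the Smn1deltaSKM mice at 3.09, 2.97 and 3.33, and the Smn1deltaSKM+AFS mice at 3.52 and 2.20. Each Smn1deltaSKM mouse lay above both Wt mice, while the Smn1deltaSKM+AFS mice lay on either side of all the others. The difference between Smn1deltaSKM and Wt was 0.57 (standard error 0.395, limma adjusted p = 0.316), with myofibers from 1.66 to 3.43 (median 2.61) in Wt and from 2.43 to 4.30 (median 3.16) in Smn1deltaSKM. By A_55_P2011702, which starts 2002 bases away, the Wt mice lay at 0.17 and -0.59, the Smn1deltaSKM mice at 0.75, 1.03 and 0.39 and the Smn1deltaSKM+AFS mice at 0.39 and 0.79. Here each mouse of both knockout groups lay above both Wt mice, by 0.94 on average in Smn1deltaSKM (standard error 0.34, adjusted p = 0.0798) and by 0.80 in Smn1deltaSKM+AFS (adjusted p = 0.195). Neither probe was called in any comparison between mouse means that kept all mice. Between Smn1deltaSKM+AFS and Smn1deltaSKM the differences were -0.27 (95% interval -1.17 to 0.63) and -0.14 (-0.92 to 0.64).

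Ppargc1b, the second coactivator of the family, has 1 probe. The Wt mice lay at -0.71 and -0.90, the Smn1deltaSKM mice at -0.79, -1.85 and -1.27 and the Smn1deltaSKM+AFS mice at -1.02 and -0.50, so all 3 groups overlapped. Its difference in Smn1deltaSKM was -0.50 (standard error 0.361, adjusted p = 0.335) and that in Smn1deltaSKM+AFS 0.044, a value whose sign changes with the scaling of the arrays.

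Nrf1, which encodes the nuclear respiratory factor NRF-1, gave different values by its 2 tested probes, whose starts lie 36894 bases apart. By A_52_P376269 the Wt mice lay at 1.5 and 1.96, the Smn1deltaSKM mice at 0.90, 0.40 and 0.84 and the Smn1deltaSKM+AFS mice at 1.33 and 0.75. Every knockout mouse, with or without the graft, lay below both Wt mice, and myofibers ran from 0.52 to 2.64 (median 1.67) in Wt and from 0.063 to 1.15 (median 0.67) in Smn1deltaSKM. The difference was -1.01 (standard error 0.318, 95% interval -1.74 to -0.29), with an adjusted p of 0.0532 by limma, and it was -0.68 in Smn1deltaSKM+AFS (adjusted p = 0.228).

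By the other Nrf1 probe, A_55_P2000077, the Wt mice lay at 0.31 and 0.49, the Smn1deltaSKM mice at 1.86, 0.55 and 0.55 and the Smn1deltaSKM+AFS mice at 1.86 and 0.019. Mouse 1 of either knockout group stood far above the rest, and these are the mice with myofibers of scan day 1. Over the myofibers within mice the probes correlated at r = -0.24 (n = 26, the points sharing mice and arrays). With the myofibers of day 1 included, the second probe minus the first was -1.18 and -1.47 in the Wt mice and 0.96, 0.14 and -0.29 in the Smn1deltaSKM mice, a shift of 1.6 between the groups, and the shift in Smn1deltaSKM+AFS was 1.22. Without the myofibers of day 1 the difference of the second probe between Smn1deltaSKM and Wt went from 0.58 (adjusted p = 0.487) to -0.089 (adjusted p = 0.843). The first probe then differed by -0.93, so the probes lay closer together than with all myofibers. In Smn1deltaSKM+AFS against Wt the second probe then differed by -0.19 and the first by -0.66. The remaining Nrf1 probe, A_51_P201468, was well above background on 5 arrays and has no call.

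Gabpa encodes the DNA-binding subunit of GABP, the other nuclear respiratory factor. By its tested probe A_51_P364984 the Wt mice lay at 0.42 and -0.25, the Smn1deltaSKM mice at 1.55, -0.44 and -0.50 and the Smn1deltaSKM+AFS mice at 0.65 and -0.073. The groups overlapped, and the differences from Wt were 0.11 (standard error 0.614, adjusted p = 0.904) and 0.21 (adjusted p = 0.865). The second Gabpa probe, A_52_P152283, was well above background on 6 of the 27 arrays.

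Tfam, which packs mitochondrial DNA and takes part in starting its transcription, has 3 tested probes. By A_55_P2026445 the Wt mice lay at 0.29 and -0.13, the Smn1deltaSKM mice at 1.92, -1.18 and -1.72 and the Smn1deltaSKM+AFS mice at 0.72 and -0.41. Smn1deltaSKM mice 2 and 3 lay below both Wt mice and mouse 1 above both. The neighbouring probe A_51_P493720, 157 bases away, repeated this with 0.50 and 0.084 in Wt, 1.5, -0.90 and -1.48 in Smn1deltaSKM and 0.49 and -0.54 in Smn1deltaSKM+AFS. It had values on 8 of 8 Wt, 9 of 12 Smn1deltaSKM and 5 of 7 Smn1deltaSKM+AFS arrays. It was well above background on all 27 arrays. The 1.5 of Smn1deltaSKM mouse 1 rests on its 3 myofibers of scan day 1. With the measured signal of all arrays kept, the Smn1deltaSKM mice lay at 0.88, -0.90 and -1.77 and the Smn1deltaSKM+AFS mice at -0.035 and -0.71. With missing values left out, the differences between Smn1deltaSKM and Wt were -0.41 (standard error 0.946, adjusted p = 0.775) and -0.58 (standard error 0.784, adjusted p = 0.609). These are the widest errors of the 15 probes in that comparison, and the direction of the first turned under other scalings and blocks. The third probe, A_52_P351785, differed by -0.14 (adjusted p = 0.849) and ran with the first at r = 0.30 within mice (n = 27), where the first pair ran together at r = 0.82 (n = 22).

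Tfb2m, the partner of the mitochondrial RNA polymerase at promoters of mitochondrial DNA, had the largest difference among the 15 probes in Smn1deltaSKM against Wt. The Wt mice lay at 1.75 and 1.33, the Smn1deltaSKM mice at -0.72, 0.89 and 0.54 and the Smn1deltaSKM+AFS mice at 0.39 and 0.93. Each knockout mouse of either group lay below both Wt mice. Myofibers ran from 0.91 to 2.55 (median 1.4) in Wt, from -1.26 to 1.45 (median 0.33) in Smn1deltaSKM and from -0.20 to 1.26 (median 0.74) in Smn1deltaSKM+AFS. The difference was -1.30 in Smn1deltaSKM (standard error 0.473, adjusted p = 0.0799) and -0.88 in Smn1deltaSKM+AFS (standard error 0.518, adjusted p = 0.293).

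Tfb1m methylates mitochondrial ribosomal RNA, and its probe was well above background on 8 of 8 Wt, 11 of 12 Smn1deltaSKM and 6 of 7 Smn1deltaSKM+AFS arrays. The scanner software did not mark the spot as found on many of them, so that values were left on 5, 7 and 1 arrays and the probe fell out of the test. Using the flag for background alone, as the deposited value table does, the Wt mice lay at -0.53 and -0.13, the Smn1deltaSKM mice at -1.74, -1.91 and -2.05 and the Smn1deltaSKM+AFS mice at -1.63 and -1.55. All 5 knockout mice lay below both Wt mice, and the spread within each group was under that distance. Myofibers ran from -1.61 to 0.36 (median -0.15) in Wt, from -2.45 to -1.17 (median -2.02) in Smn1deltaSKM and from -1.96 to -1.11 (median -1.60) in Smn1deltaSKM+AFS. With that flag rule, which was chosen after the data had been seen, limma gave -1.57 (standard error 0.273, adjusted p = 0.0116) for Smn1deltaSKM and -1.26 (standard error 0.299, adjusted p = 0.0451) for Smn1deltaSKM+AFS, where 20.3% and 6.82% of all probes were called. Smn1deltaSKM+AFS differed from Smn1deltaSKM by 0.31 (95% interval -0.31 to 0.94).

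Esrra, the estrogen-related receptor that PGC-1alpha uses to drive respiratory genes, lay at 2.35 and 2.51 in the Wt mice, at 2.05, 2.16 and 2.08 in the Smn1deltaSKM mice and at 2.25 and 3.14 in the Smn1deltaSKM+AFS mice. The Smn1deltaSKM mice lay below all the others, by a small step: -0.34 against Wt (standard error 0.318, adjusted p = 0.456). Smn1deltaSKM+AFS exceeded Smn1deltaSKM by 0.60 (95% interval -0.13 to 1.33).

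Esrrg, the related receptor of oxidative muscle, has 2 tested probes 192 bases apart. By A_65_P19089 the Wt mice lay at -0.70 and -1.35, the Smn1deltaSKM mice at 0.53, -0.85 and -1.05 and the Smn1deltaSKM+AFS mice at -0.018 and 0.27. By A_55_P2006499 they lay at -1.95 and -1.83, at -0.23, -2.17 and -2.14, and at 1.28 and -1.12. By both probes the Smn1deltaSKM+AFS mice lay above the Wt mice, by 1.15 (standard error 0.526, adjusted p = 0.187) and 1.96 (standard error 0.842, adjusted p = 0.164), and neither was called. Without the myofibers of scan day 1 these differences were 0.93 (adjusted p = 0.115) and 0.69 (adjusted p = 0.150). By the second probe Smn1deltaSKM+AFS mouse 1 had values on 2 of its 4 arrays, and they lay 5.08 apart, the higher on scan day 1. That probe also had values on only 5 of 8 Wt arrays.

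Ppara, the receptor that turns on fatty acid oxidation genes, gave the single call. By A_55_P2071601 the Wt mice lay at -0.48 and -0.80, the Smn1deltaSKM mice at 0.080, 0.42 and 0.41 and the Smn1deltaSKM+AFS mice at 0.48 and 1.57. The 3 groups did not overlap at the level of mice, with Wt lowest and Smn1deltaSKM+AFS highest. Myofibers did overlap, running from -1.90 to 0.13 (median -0.65) in Wt, from -0.42 to 1.12 (median 0.25) in Smn1deltaSKM and from -0.39 to 2.07 (median 0.98) in Smn1deltaSKM+AFS. The difference of Smn1deltaSKM+AFS from Wt was 1.67 (3.18-fold, standard error 0.396, 95% interval 0.76 to 2.57, adjusted p = 0.0452). That call held in 10 of 22 alternative analyses, and over the 22 the difference ran from 1.12 to 2.21. The 10 are not separate support, because several left the difference at 1.67. These were the probes available on every array, the brightest probe per gene and the background flag alone. Leaving out Smn1deltaSKM mouse 1, or its 3 myofibers of scan day 1, also gave 1.67. Such settings change the set of probes or the shared spread and not the estimate. The lowest adjusted p, 0.000337, came from limma with myofibers as replicates, which does not measure the spread between mice. Leaving out a Wt mouse or a Smn1deltaSKM+AFS mouse leaves 1 mouse in that group, so the loss of the call there decides nothing about Ppara. The call was also lost without Smn1deltaSKM mouse 2 or 3, and without the 5 myofibers of scan day 1 (1.57, adjusted p = 0.0576). It was also lost with quantile normalization (1.63, adjusted p = 0.0633), with normexp background correction before it (1.22, adjusted p = 0.0619), with the deposited value table (1.55, adjusted p = 0.0656), with the slide as a random block (1.41, adjusted p = 0.145) and with the mouse number as a replicate block (1.67, adjusted p = 0.0544).

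In Smn1deltaSKM the same Ppara probe exceeded Wt by 0.94 (standard error 0.362, adjusted p = 0.0922). The second Ppara probe, A_55_P2055854, 424 bases away, lay at -1.18 and -0.82 in Wt, at -1.08, -0.77 and -0.69 in Smn1deltaSKM and at -0.41 and 0.27 in Smn1deltaSKM+AFS. It differed from Wt by 0.16 (adjusted p = 0.738) and 0.93 (adjusted p = 0.119), and the probes ran together within mice at r = 0.79 (n = 25). The second probe had values on 6 of 8 Wt arrays and on every knockout array, and Wt mouse 1 rests on 2 of its 4. With the measured signal of all arrays kept, that mouse lay at -2.16, and Smn1deltaSKM differed from Wt by 0.65 (limma adjusted p = 0.285). So by both probes the Smn1deltaSKM+AFS mice lay above all others, by 0.72 (95% interval -0.10 to 1.55) and 0.77 (95% interval 0.061 to 1.49) over Smn1deltaSKM, with an adjusted p of 1 for each. The remaining Ppara probe, A_55_P2071596, was well above background on 8 arrays.

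**Figure D2:**
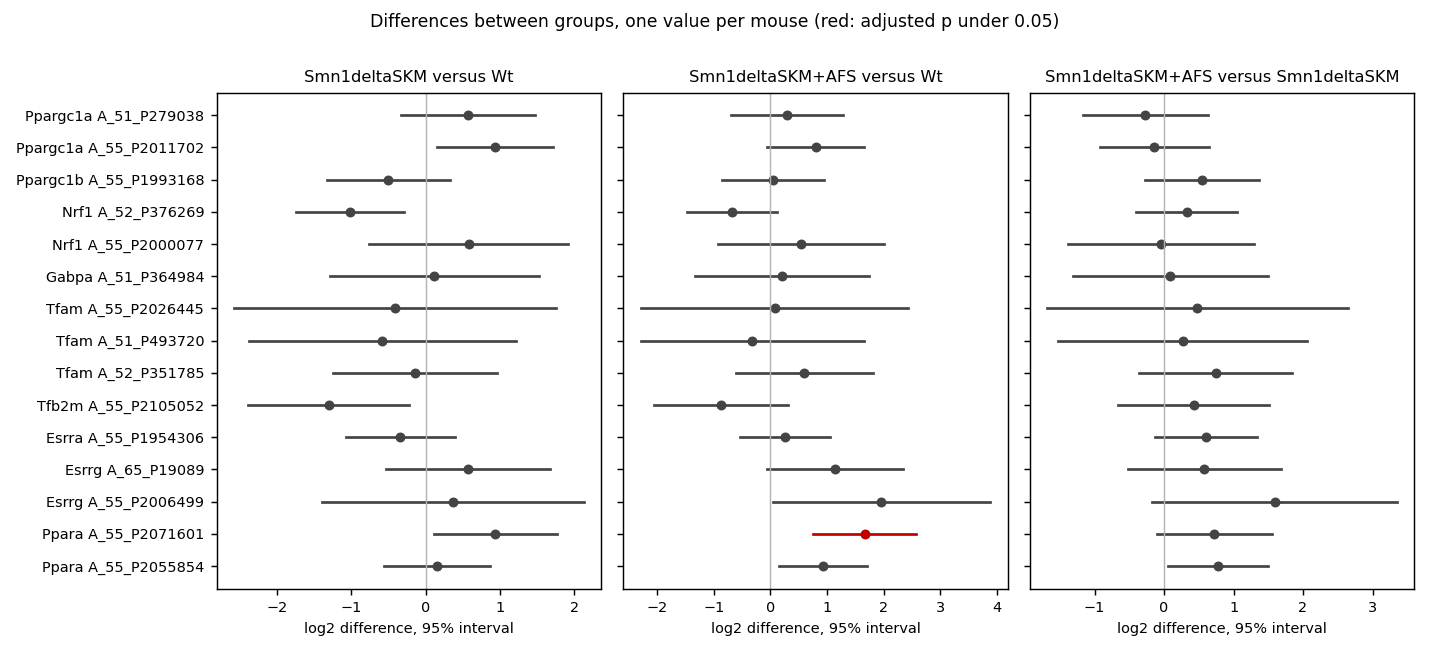
Log2 difference (horizontal axis) between groups for the 15 tested probes, from limma on mouse means; points are estimates, lines their 95% intervals, and red marks an adjusted p under 0.05. The single red point is Ppara A_55_P2071601 in Smn1deltaSKM+AFS against Wt, at 1.67. The intervals of Tfam A_55_P2026445 and Tfam A_51_P493720 are the widest in the first panel.

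At the level of mice, 7 of the 15 probes had Smn1deltaSKM and Wt mice that did not overlap, 4 higher and 3 lower, where 55.3% of all probes were apart in this way. For Smn1deltaSKM+AFS against Wt it was 8 of 15, 6 of them higher, beside 67.9% of all probes. Between Smn1deltaSKM+AFS and Smn1deltaSKM it was 3 of 15, all higher (Esrra and both Ppara probes), beside 16.5%.

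Myofibers scanned on day 1 and day 2 could be compared within Smn1deltaSKM and Smn1deltaSKM+AFS, which hold 5 and 14 arrays of these days. With the mouse as a random block, limma called 6 of the 15 probes between the days, where 24.7% of 22141 probes were called. The p-values of this test rest on single myofibers, and those of day 1 come from mouse 1 of each group alone. They do not measure a spread between mice or slides. The largest was Tfam A_55_P2026445, at 2.38 to 3.06 on day 1 and -2.39 to -0.25 on day 2, a difference of 3.82 (standard error 0.266, adjusted p = 5.84e-10) with no overlap. Within Smn1deltaSKM mouse 1, whose other myofiber was of day 2, the step was 3.63, and within Smn1deltaSKM+AFS mouse 1 it was 3.90. The step was thus present between myofibers of the same mouse. Nrf1 A_55_P2000077 ran from 2.25 to 3.77 on day 1 and from -0.15 to 0.83 on day 2 (2.69, adjusted p = 5.25e-09). Tfam A_51_P493720 (2.70, adjusted p = 9.37e-06), Esrrg A_55_P2006499 (3.12, adjusted p = 0.00172) and Gabpa A_51_P364984 (1.37, adjusted p = 0.0220) were also higher on day 1, and Tfb2m was lower (-1.12, adjusted p = 0.00536). Only these Tfam and Nrf1 probes, among the 6 called, had no overlap between the days. By contrast, Nrf1 A_52_P376269 (-0.027), Ppara A_55_P2055854 (-0.013) and Ppargc1b (0.051) hardly differed in their estimates, with standard errors of 0.224, 0.337 and 0.31. The day 1 myofibers of Smn1deltaSKM were all on slide 1 and those of Smn1deltaSKM+AFS on slide 2, and these slides held no array of day 2, so slide and scan day cannot be told apart here.

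**Figure D3:**
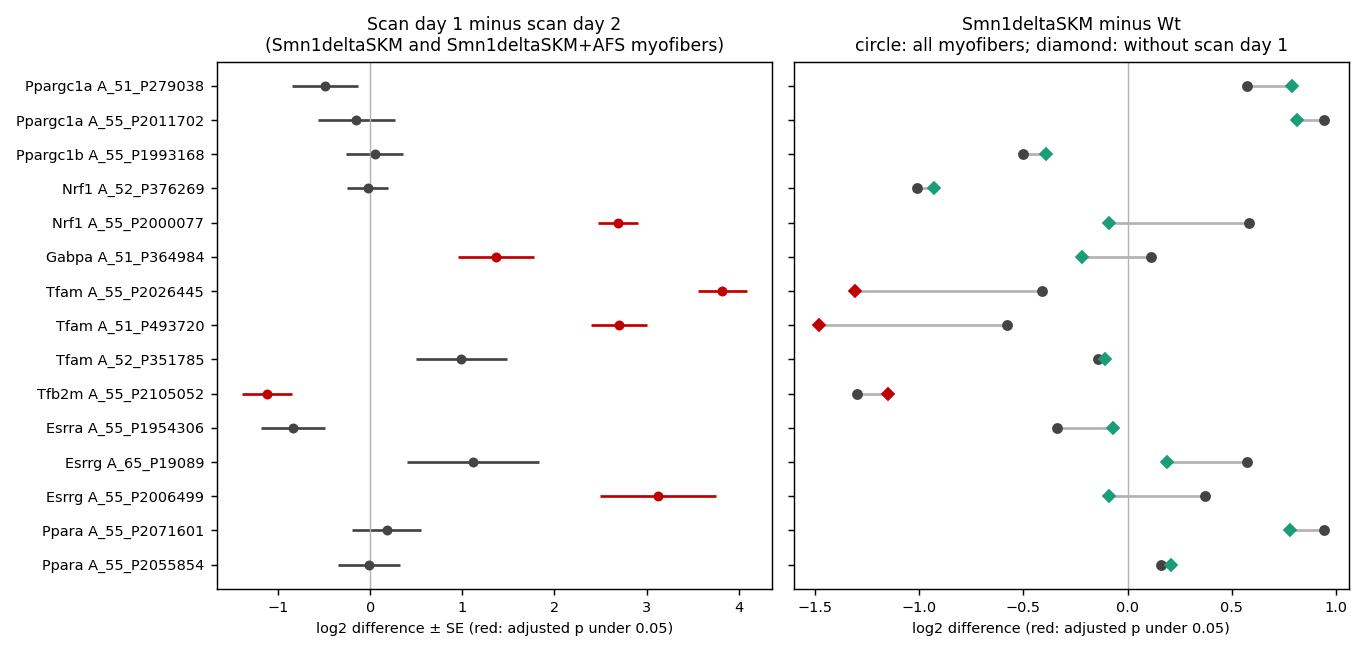
Left, log2 difference of scan day 1 from scan day 2 (horizontal axis, bars are standard errors) for the 15 probes within the knockout groups; right, the difference of Smn1deltaSKM from Wt with all myofibers (circles) and without scan day 1 (diamonds), red marking an adjusted p under 0.05. Tfam A_55_P2026445 moves from -0.41 to -1.31 and Tfam A_51_P493720 from -0.58 to -1.48.

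Without the 5 myofibers of day 1, a choice made after these values were seen, 3 of the 15 probes were called lower in Smn1deltaSKM than in Wt, where 29.7% of all probes were called in either direction. They were Tfam A_55_P2026445 (-1.31, standard error 0.364, adjusted p = 0.0270), Tfam A_51_P493720 (-1.48, standard error 0.413, adjusted p = 0.0306) and Tfb2m (-1.15, standard error 0.353, adjusted p = 0.0387). For Tfam A_51_P493720, Smn1deltaSKM mouse 1 then had no value, so that difference rests on Smn1deltaSKM mice 2 and 3. Nrf1 A_52_P376269 stayed near its value with all myofibers, at -0.93 (adjusted p = 0.0601), while Gabpa went from 0.11 to -0.22. Tfb1m means without day 1 were -2.45, -1.91 and -2.05 in Smn1deltaSKM and -1.46 and -1.55 in Smn1deltaSKM+AFS, again all below Wt. In Smn1deltaSKM+AFS against Wt 0 of 15 were called, beside 11.1% of all probes. Leaving out Smn1deltaSKM mouse 1 altogether called 5 of 15 in Smn1deltaSKM against Wt, with Nrf1 A_52_P376269 at -1.10 (adjusted p = 0.0219) and Ppara A_55_P2071601 at 1.06 (adjusted p = 0.0445) beside the same Tfam and Tfb2m probes, where 43.8% of all probes were called.

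The spread between myofibers of one mouse was wide for some of these probes and differed between the groups. The standard deviation within mice was 1.33 for Esrrg A_55_P2006499, 1.23 for Esrrg A_65_P19089 and 1.18 for Tfam A_55_P2026445, at or above percentile 98.9 of all tested probes, whose median was 0.447. In Wt, where all arrays are of one scan day, it was 0.356 for that Tfam probe, beside a median of 0.472 over all probes, and 0.586 and 1.09 for the Esrrg probes in the order given. In the groups that mix scan days it was 1.12 in Smn1deltaSKM and 1.78 in Smn1deltaSKM+AFS for Tfam, and 1.01 and 2.27 for Esrrg A_55_P2006499. Over all groups the lowest of the 15 was Tfb2m at 0.53. For Nrf1 A_52_P376269 the spread was 0.844 in Wt and 0.307 in Smn1deltaSKM. As deviations from the mouse mean, Esrrg and Ppara ran together (r = 0.68, n = 24), as did Ppargc1b and Esrra (0.52, n = 27) and Ppargc1a and Esrra (0.49, n = 27), and Nrf1 ran against Ppara (-0.49, n = 27). Without day 1 the strongest pair was Ppargc1a and Ppara, which went from 0.34 to 0.71. The pair of Ppargc1a and Esrrg went from 0.11 to 0.59 and that of Tfam and Tfb2m from -0.31 to 0.66, while Esrrg and Ppara stood at 0.62. These correlations describe myofibers that share mice and arrays. Among 10172 genes, those most like Ppargc1a by r over 27 myofibers included Flnc (0.822), Tnfrsf12a (0.727) and Gbp5 (0.725), and the other two of the first 5 were probes with no gene symbol.

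The genes around these regulators were followed in lists, each gene by its brightest probe, of which 21.3% of 16648 were called in Smn1deltaSKM against Wt and 7.30% in Smn1deltaSKM+AFS against Wt. The lower side of the calls rests partly on scaling: 65.8% of all probe calls in Smn1deltaSKM were lower, and 45.0% when arrays were centred on probes available everywhere, which moved the median of all probes from -0.14 to 0.077. Among 16 tested upstream kinases and activators, 8 fell and 1 rose in Smn1deltaSKM, with a median of -1.25. Prkag3, the regulatory AMPK subunit of glycolytic muscle, went from 4.27 ± 0.20 (SD, n = 2 mice) in Wt to 1.67 ± 0.32 (n = 3) in Smn1deltaSKM, a difference of -2.60 (adjusted p = 0.00663), and was 1.71 ± 0.32 (n = 2) in Smn1deltaSKM+AFS. Prkag2, another regulatory subunit of the same kinase, went the other way, by 1.79 (adjusted p = 0.00851). Hdac4, a repressor of MEF2 factors, fell by 1.93 on the log2 scale (adjusted p = 0.00743). Under each of 4 other scalings (quantile normalization, normexp background correction before it, centring on probes available everywhere, and the deposited value table) 6 of the 16 fell and 1 rose. In Smn1deltaSKM+AFS 4 fell and 1 rose, while 2 fell and 1 rose under each of the 4 other scalings, and 4 fell and 0 rose without the myofibers of scan day 1.

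Among 15 tested partners and coregulators, 5 fell and 2 rose in Smn1deltaSKM, with a median of -0.52. There were 3 lower and 1 higher with quantile normalization and with the deposited table, and with centring 3 fell and 2 rose. Thra, the thyroid hormone receptor alpha, differed by -1.63 (adjusted p = 0.0137), Rxra, the partner receptor of PPARalpha, by -1.34 (adjusted p = 0.0152), and Sirt1, a deacetylase of PGC-1alpha, by 1.28 (adjusted p = 0.0204). In Smn1deltaSKM+AFS Rxra differed by -1.34 (adjusted p = 0.0363), a call lost with quantile normalization and with the deposited table, and the single higher call was Perm1, a muscle gene induced by PGC-1alpha and the estrogen-related receptors (2.76, adjusted p = 0.0240), named after its value was seen. Of 9 tested genes for mitochondrial DNA replication and transcription, 2 fell in Smn1deltaSKM: Tefm, the mitochondrial elongation factor (-1.10, adjusted p = 0.0255), and Lrpprc, which stabilizes mitochondrial messages (-1.93, adjusted p = 0.0453). The count of this list was 1 with quantile normalization and with the deposited table, and 0 with normexp and with centring. The partner of Lrpprc, Slirp, differed by -0.74 (adjusted p = 0.111).

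Genes encoded in mitochondrial DNA are the end of this pathway, and 6 of 13 were on the array. In Smn1deltaSKM all 6 lay below Wt with a median of -0.95, and 4 were called: ND6 (-1.04, adjusted p = 0.0306), ND1 (-0.96, adjusted p = 0.0478), ND3 (-0.94, adjusted p = 0.0485) and ND4L (-0.98, adjusted p = 0.0485). ND6 lay at 7.98 ± 0.0018 in Wt (SD, n = 2 mice), 6.94 ± 0.22 in Smn1deltaSKM (n = 3) and 7.74 ± 0.11 in Smn1deltaSKM+AFS (n = 2). None of the 4 calls was made under the 4 other scalings, where the median ran from -0.73 to -0.50, and without the myofibers of scan day 1 the count was 2. In Smn1deltaSKM+AFS 0 were called against either group, with medians of -0.35 against Wt and 0.54 against Smn1deltaSKM.

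Of 13 respiratory genes linked to NRF-1 and GABP, all 13 lay below Wt in Smn1deltaSKM and 3 were called: Sdhb of complex II (-1.09, adjusted p = 0.0272), Alas1, which starts heme synthesis (-1.55, adjusted p = 0.0404), and cytochrome c, Cycs (-1.16, adjusted p = 0.0434). Under the 4 other scalings between 10 and 12 of the 13 lay below Wt and 0 were called. The median of the 13 was -0.73 in Smn1deltaSKM and -0.085 in Smn1deltaSKM+AFS, and in Smn1deltaSKM+AFS against Smn1deltaSKM 12 of 13 lay above 0 with a median of 0.53 and 0 called. Of 13 tested metabolic genes linked to ERR, PPARalpha and PGC-1, 5 fell and 1 rose in Smn1deltaSKM, among them the citric acid cycle enzyme Cs (-1.65, adjusted p = 0.00990), and the angiogenic factor Vegfa rose (1.78, adjusted p = 0.0228). With quantile normalization and with the deposited table the same list gave 2 lower and 2 higher, with normexp 2 lower and 3 higher, and with centring 3 lower and 2 higher. In Smn1deltaSKM+AFS against Wt 2 of the 13 were called, both higher: Vegfa (2.57, adjusted p = 0.0234) and the carnitine carrier Slc25a20 (1.48, adjusted p = 0.0455), the second named after its value was seen.

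**Figure D4:**
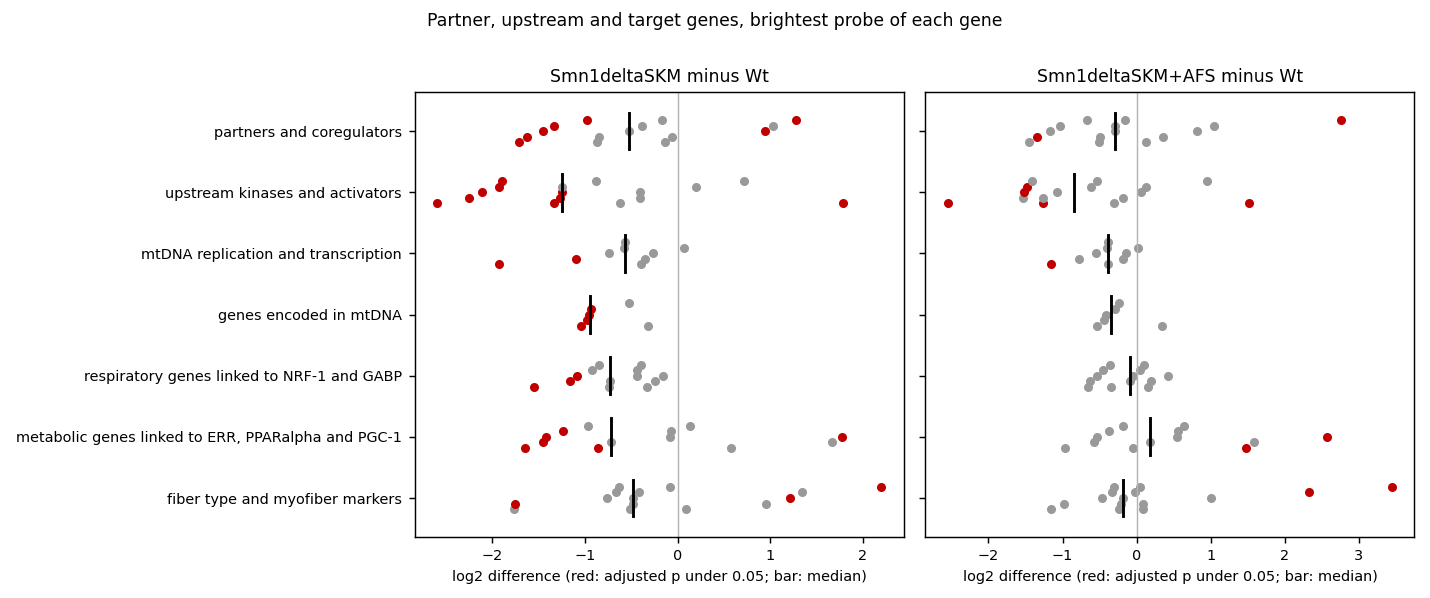
Log2 difference from Wt (horizontal axis) of each tested gene, by its brightest probe, in 7 lists around the regulators, for Smn1deltaSKM (left) and Smn1deltaSKM+AFS (right); bars are list medians and red marks an adjusted p under 0.05. In the left panel all 6 genes encoded in mitochondrial DNA and all 13 respiratory genes lie below 0, while in the right panel their medians are -0.35 and -0.085.

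Of 15 tested fiber type and myofiber markers, 2 rose and 1 fell in Smn1deltaSKM: the fast myosin Myh1 (2.20, adjusted p = 0.0225), the slow troponin Tnni1 (1.21, adjusted p = 0.0262) and creatine kinase Ckm (-1.76, adjusted p = 0.0216). Of the 6 tested fast markers 5 lay below Wt, with a median of -0.48, and of the 4 slow markers 1 did. Tnni1 was well above background on 5 of 8 Wt arrays and on every knockout array. Its Wt level was -1.39 in the test and -2.39 with the measured signal of all arrays kept. The lower call was lost with quantile normalization, normexp and the deposited table, and the count of 2 higher was the same under the 4 other scalings. In Smn1deltaSKM+AFS 2 rose, Myh1 (3.45, adjusted p = 0.0194) and myoglobin, Mb (2.33, adjusted p = 0.0266), and without the myofibers of scan day 1 the count was 1. Of the 6 fast markers 4 lay below Wt in that group, and of the 5 myofiber markers 4 did, with medians of -0.11 and -0.33. Of 25 markers of endothelial, fibroblast, immune, mural, Schwann, satellite, fat and red blood cells, 10 were tested. Among the untested fibroblast markers, Dcn was well above background on 1 of 8 Wt, 12 of 12 Smn1deltaSKM and 5 of 7 Smn1deltaSKM+AFS arrays. Its measured signal had means of -2.75, 1.04 and 0.25. For Col1a1 these means were -3.12, -1.49 and -1.96, and for Pdgfra, which went the other way, -4.83, -5.14 and -5.11. In Smn1deltaSKM 3 of these rose, Ptprc (1.33, adjusted p = 0.0220), Cd68 (2.99, adjusted p = 0.0365) and Cidea (2.88, adjusted p = 0.0154), and the median was 1.18. Ptprc was well above background on 8 of 8 Wt arrays, Cd68 on 7 and Cidea on 6, and all were on every knockout array. A marker low in Wt could thus pass the filter through the knockout arrays. For Cidea the Wt level was -0.62 in the test and -1.45 with the measured signal of all arrays kept. Of the 4 tested immune markers, Itgam (-0.14, adjusted p = 0.710) and Csf1r (-0.50, adjusted p = 0.172) went the other way without a call. Their probes lay at 7.84 and 4.70 in Wt, beside -1.37 for Ptprc and -1.09 for Cd68. Whether such bright signals come from immune cells was not tested. In Smn1deltaSKM+AFS 0 were called, with a median of 1.00. Without the myofibers of scan day 1 the count was 3 higher in either knockout group, with medians of 1.08 and 1.24, and with centring 1 was called in Smn1deltaSKM+AFS. Well above background on every array of the group were 4 of 25 in Wt, 10 in Smn1deltaSKM and 10 in Smn1deltaSKM+AFS, and on no array 1, 1 and 3. Their summed signal, as multiples of the array's 75th percentile, had a median of 267 (209 to 398) in Wt, 260 (232 to 315) in Smn1deltaSKM and 312 (276 to 376) in Smn1deltaSKM+AFS, and without the 3 brightest markers 3.66 (2.87 to 114), 26.3 (11.2 to 51.8) and 41.6 (7.38 to 67.0). Pax7, the defining satellite cell gene, was well above background on 1 array in each group. The part of fiber type and of other cells in the values of the regulators was not tested.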

How the data were processed

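Each of 27 myofibers had its own 1-colour array. The deposited scanner files hold the intensity of each spot after the background subtraction and detrending of Agilent Feature Extraction 10.7.3.1, the version named in the submitters' processing notes. The authors set values as missing where a spot was not found or not well above background and kept probes with at least 75% of values. Here log2 of the processed intensity was taken and the 75th percentile of each array subtracted. Values were left out where a spot was not found, not well above background or marked as uneven, spots of a probe were averaged, and probes with values on 21 or more of 27 arrays were kept. The number of arrays limits the precision. Myofibers were averaged per mouse, and limma 3.58.1 in R 4.3.3 fitted all 7 mice together, with Benjamini-Hochberg adjustment. The fit was tested on simulated data with known changes. The authors' value table followed the scanner intensity closely (lowest Pearson's r 0.99872), and its values were missing exactly where a spot was not well above background. It was used as an alternative. In all, 24 alternatives were run, of which 2 were added after the data were seen.

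The 10 genes and the lists around them were chosen with earlier results of these data known. All probes of the 10 genes were described. Of each list the 3 genes with the lowest p in Smn1deltaSKM against Wt were named, as were Smn1, marker genes and the genes most like Ppargc1a. The deposited files held no columns of other samples. The single values of 1 gene in the metabolic list are not reported here.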

Additional observations from a re-analysis of the deposited data

Results flagged for a closer look

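In the groups of 4 to 10 myofibers, 31 sets of values were checked for a single value far from the others, and chance marks about 1 in 20. Both that stood out were in Smn1deltaSKM+AFS myofiber 2, which belongs to scan day 1. Gabpa A_51_P364984 was 2.14 there, and the nearest of the other 5 values was 0.17. Tfam A_52_P351785 was 3.05 there, and the nearest of the other 6 was 0.16.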

How the results depend on the processing

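The mice, 2 or 3 a group, and the signal over background of single spots set the limits here: without either Wt mouse limma called 0 probes of the whole array in either comparison with Wt, and over all alternatives it called 0 to 11996, 0 to 9155 and 0 to 26 probes in the 3 comparisons. Of the alternative values of the tested probes, 280, 282 and 313 kept direction and side of the threshold, and 20, 18 and 34 turned sign. The mouse number as a replicate block is only a number: same-numbered mice correlated at -0.0537 to 0.30. Causes of the shifts below were not tested.

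For Smn1deltaSKM against Wt, where 0 probes of the regulators were called, the count was 1 with the deposited value table, without a filter, over probes available on every array and with the background flag alone, 2 with the mouse as a random block or without 3 myofibers of Smn1deltaSKM scan day 1, 3 without all 5 myofibers of that day, 4 with myofibers as replicates, and 0 to 5 leaving out 1 mouse (5 without Smn1deltaSKM mouse 1). For Smn1deltaSKM+AFS against Wt, where 1 was called, it was 0 with the deposited table, quantile normalization, normexp, the slide as a random block or the replicate block. Over all probes, 388 rose and 575 fell with the deposited table, and 353 and 434 with quantile normalization. It was also 0 without 5 myofibers of day 1, beside 11.1% of all probes. It was 2 with the background flag alone (1 of them Tfb1m, beside 6.82%) or without 3 myofibers, and 3 with myofibers as replicates. Leaving out 1 Smn1deltaSKM mouse it was 0 to 3. Between Smn1deltaSKM+AFS and Smn1deltaSKM it was 0 throughout. Over all probes the replicate block called 3086 in the first comparison and 1221 in the second.

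No value that turned sign was called. In Smn1deltaSKM against Wt, Tfam A_55_P2026445 became 0.053 with normexp, 0.26 with the slide block and 0.29 with the replicate block, Tfam A_51_P493720 0.0077 with the replicate block, and Tfam A_52_P351785 0.076 with centring and 0.24 with the slide block. Without 3 or 5 myofibers of day 1 Nrf1 A_55_P2000077 became -0.089, Gabpa -0.22 and Esrrg A_55_P2006499 -0.091. In Smn1deltaSKM+AFS against Wt, Ppargc1b became -0.0029 with normexp, -0.017 with the deposited table and -0.22 with the slide block, Gabpa -0.02 with normexp and Esrra -0.045 with the slide block. Without 5 myofibers Nrf1 A_55_P2000077 became -0.19, Gabpa -0.035 and Tfam A_55_P2026445 -0.90. In Smn1deltaSKM+AFS against Smn1deltaSKM, Gabpa became -0.055 with normexp, -0.0048 with centring, -0.068 with measured signal kept, without a filter and with the background flag alone, -0.038 with the deposited table, -0.19 with the slide block, -0.032 with the scan day block and -0.26 with the replicate block. Nrf1 A_55_P2000077 became 0.089 with myofibers as replicates, 0.012 with the mouse as a random block, 0.18 with the slide block and 0.63 without 3 myofibers. With the slide block Ppargc1b became -0.013, Tfam A_55_P2026445 -0.027 and Tfam A_51_P493720 -0.13, and with the replicate block these Tfam probes became -0.21 and -0.32. Ppargc1a A_55_P2011702 became 0.15 within scan day 2 and without 5 myofibers.

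Leaving out 1 mouse at a time, the Smn1deltaSKM difference from Wt ran from -0.56 to 0.47 for Gabpa, -1.53 to 0.29 for Tfam A_55_P2026445, -1.48 to 0.0077 for Tfam A_51_P493720, -0.59 to 0.28 for Tfam A_52_P351785, -0.27 to 0.70 for Esrrg A_55_P2006499 and -0.026 to 0.34 for Ppara A_55_P2055854. The Smn1deltaSKM+AFS difference from Wt ran from -0.36 to 0.95 for Ppargc1a A_51_P279038, -0.22 to 0.30 for Ppargc1b, -0.38 to 1.46 for Nrf1 A_55_P2000077, -0.16 to 0.57 for Gabpa, -0.49 to 0.64 for Tfam A_55_P2026445, -0.83 to 0.20 for Tfam A_51_P493720 and -0.19 to 0.71 for Esrra. That from Smn1deltaSKM ran from -0.93 to 0.39 for Ppargc1a A_51_P279038, -0.34 to 0.061 for Ppargc1a A_55_P2011702, -0.97 to 0.88 for Nrf1 A_55_P2000077, -0.27 to 0.77 for Gabpa, -0.21 to 1.61 for Tfam A_55_P2026445, -0.32 to 1.16 for Tfam A_51_P493720 and -0.051 to 0.75 for Tfb2m.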
